A study of Mus musculus with 9 samples.

Results

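The expression of 10 genes that build, load and regulate MHC class I molecules was followed in mouse conjunctiva, the thin mucosa over the inner lids and the front of the eye outside the cornea. They were taken from the deposited count table by their symbols: B2m, H2-K1, H2-D1, Tap1, Tap2, Tapbp, Psmb8, Psmb9, Psmb10 and Nlrc5. All 10 of the 10 symbols were found among the 20603 genes of the table, and all 10 had enough counts to be among the 15613 genes tested. Messenger RNA was sequenced from 9 libraries in 3 groups of 3, and each library pooled the conjunctiva of 3 mice on a C57BL/6J background. The challenged Vegfr3iLECko mice were Vegfr3 fl/fl;prox1CreERT2, in which tamoxifen activates a Cre recombinase under the lymphatic endothelial gene Prox1, and they received daily ovalbumin (OVA) eye drops. The challenged controls were Vegfr3 fl/fl littermates without the Cre, given the same drops. The unchallenged controls were Vegfr3 fl/fl mice without OVA challenge. All 3 groups carried the floxed Vegfr3 alleles, and tamoxifen was injected 5 times, at 75 mg/kg, in week 5. A week 6 immunization of every group combined OVA (250 µg), pertussis toxin (PTX, 0.3 µg) and the adjuvant aluminum hydroxide (5 mg). Challenge started 14 days after that, with a daily drop of 5 µL holding 250 µg of OVA on the right eye over 28 days and saline on the contralateral one. Which eye or animals gave the unchallenged pools is not stated.

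MHC class I molecules display short peptides from inside the cell to CD8 T cells. The heavy chains, here H2-K1 and H2-D1, pair with the light chain beta-2-microglobulin (B2m). Peptides are cut by the proteasome, carried into the endoplasmic reticulum by the transporter TAP and fitted onto new class I molecules with the help of tapasin (Tapbp). Interferon gamma replaces the catalytic subunits of the constitutive proteasome with those of the immunoproteasome and induces the transactivator Nlrc5, which drives class I genes. Most nucleated cells express the pathway at some level, and in bulk tissue more cells of a type and more RNA per cell cannot be told apart.

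Of the 10 genes, 7 lie on chromosome 17, where the mouse MHC is found. Psmb10 and Nlrc5 lie on chromosome 8 and B2m on chromosome 2. RefSeq promoter windows of 300 bases, from 250 before to 50 after the annotated start on GRCm38.p6, were at hand for 8 of the 10 genes and not for Tap2 and Nlrc5. The counts were made on mm39, so these coordinates serve only to place the sequences. Windows were searched for 4 short motifs. Those of the 3 class I chains and of Tap1 are shown because they hold both TGACG and CCAAT, as does that of Psmb9, which shares most of its bases with Tap1. The windows of Tapbp, with CCAAT but no TGACG, and of Psmb8 and Psmb10, with neither, are not shown. Capitals mark every match, on either strand, to TGACG (the core of the X2 box), CCAAT, GAAANNGAAA (an element for interferon regulatory factors) or TTCNNNGAA (a gamma-activated site). The letters and the windows to show were chosen with the sequences in view.
B2m, chr2:122147437-122147736, plus strand: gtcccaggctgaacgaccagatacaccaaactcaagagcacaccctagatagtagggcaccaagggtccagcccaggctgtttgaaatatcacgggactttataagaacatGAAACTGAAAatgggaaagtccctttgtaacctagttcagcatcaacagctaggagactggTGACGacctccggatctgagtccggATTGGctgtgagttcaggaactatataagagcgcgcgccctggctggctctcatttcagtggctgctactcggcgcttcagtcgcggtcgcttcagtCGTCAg
H2-K1, chr17:34000298-34000597, minus strand: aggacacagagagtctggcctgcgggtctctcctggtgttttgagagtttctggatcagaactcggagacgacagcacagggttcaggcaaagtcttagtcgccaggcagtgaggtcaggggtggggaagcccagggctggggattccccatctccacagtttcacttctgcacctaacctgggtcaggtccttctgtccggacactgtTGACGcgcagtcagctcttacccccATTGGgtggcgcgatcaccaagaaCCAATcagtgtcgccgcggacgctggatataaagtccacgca
H2-D1, chr17:35262844-35263143, plus strand: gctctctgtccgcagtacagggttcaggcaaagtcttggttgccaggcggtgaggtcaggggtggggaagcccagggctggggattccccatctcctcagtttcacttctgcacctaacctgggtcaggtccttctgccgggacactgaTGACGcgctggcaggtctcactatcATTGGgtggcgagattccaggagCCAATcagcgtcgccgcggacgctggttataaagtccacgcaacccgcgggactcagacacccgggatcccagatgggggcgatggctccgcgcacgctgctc
Tap1, chr17:34187306-34187605, plus strand: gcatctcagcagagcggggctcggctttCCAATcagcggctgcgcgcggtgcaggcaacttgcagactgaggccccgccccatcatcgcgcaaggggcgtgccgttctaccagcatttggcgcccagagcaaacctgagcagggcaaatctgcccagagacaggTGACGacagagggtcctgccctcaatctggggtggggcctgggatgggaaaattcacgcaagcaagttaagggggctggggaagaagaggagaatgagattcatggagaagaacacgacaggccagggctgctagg

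TGACG and CCAAT were both found in the windows of 5 of the 8 genes, B2m, H2-K1, H2-D1, Tap1 and Psmb9. Among all 32851 promoter windows 7.73% hold both, 20.8% hold TGACG and 37.4% hold CCAAT. The letters GAAANNGAAA were found only in the window of B2m, against 3.44% of all windows. The letters TTCNNNGAA were found only in that of Psmb8, against 8.30%. Interferon elements spelled with other letters were not searched for, so a window without a match may still hold one. No 2 of the 4 motifs overlapped in the printed windows. The windows of H2-K1 and H2-D1 aligned over 228 positions with 90.4% identity. Tap1 and Psmb9 are transcribed away from each other, and their windows share the same 275 bases, chr17:34187306-34187580, read on opposite strands. A match is a description of the letters and does not show that a factor binds there.

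The libraries held 16490050 to 24746836 counts, so that 3 counts, the floor for a count of 0, came to 0.115 to 0.186 CPM (counts scaled to library size with TMM factors). Flt4, the gene symbol of Vegfr3, was at 13.0, 5.07 and 5.32 CPM in challenged knockouts 1 to 3, against 13.4, 20.3 and 20.1 CPM in challenged controls 1 to 3. Knockout pool 1 was just below the lowest challenged control, and Flt4 did not pass (log2 fold change -1.20, SE 0.40, adjusted p = 0.468). Whether the counted reads cover the excised part is not given in the sources used here. Challenged control 1 stood apart from the other challenged controls in Ifng, with 21.0 CPM against 1.61 and 2.28 CPM. Epithelial markers such as Krt5 and Krt13 were abundant in all 9 libraries, and 8 of 8 markers of the conjunctival epithelium were detected. The libraries are tissue pools, so p-values measure the spread between pools, and floors cover counting error only.

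The first comparison asked how the class I pathway differed between challenged and unchallenged control conjunctiva. All 10 genes were higher in every challenged control pool than in every unchallenged control pool. Over all 15613 genes tested, 7.21% were higher with no overlap between these groups. The fold differences ran from 1.75 for Tapbp to 7.53 for Nlrc5. In edgeR's quasi-likelihood test with Benjamini-Hochberg adjustment across the table, 0 of the 10 reached 0.05, and 0.0576% of genes were called as higher. In the same test 10 of 10 had an unadjusted p under 0.05 and a positive difference, against 6.77% of genes, and DESeq2 called 8 of 10 as higher, against 2.80%. The 10 T cell markers summed to 96.1 to 193 CPM in challenged controls, against 15.5 to 25.6 CPM in unchallenged controls, and their part in the class I differences was not tested.

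Among the class I chains B2m had the largest difference with challenge. B2m was at 3283, 2124 and 2821 CPM in challenged controls 1 to 3, against 1272, 355 and 407 CPM in unchallenged controls 1 to 3. Every challenged pool was above every unchallenged pool, and unchallenged control 1 was well above the other unchallenged pools. The log2 fold change was 2.02 (SE 0.47, adjusted p = 0.113), or 4.04-fold. B2m passed with the replicate number as a block, which assumes that same-numbered pools are paired (adjusted p = 0.0499). H2-K1, one of the 2 classical heavy chains of this strain, was at 3381, 2457 and 3849 CPM in challenged controls and at 1314, 443 and 761 CPM in unchallenged controls. Its groups were separate, with a log2 fold change of 1.94 (SE 0.41, adjusted p = 0.101). H2-D1, the other classical heavy chain, was at 2775, 2186 and 3422 CPM with challenge, against 1361, 737 and 1216 CPM without. The difference was smaller than for the other chains, at a log2 fold change of 1.34 (SE 0.33, adjusted p = 0.126). H2-K1, H2-D1 and the H2-Q and H2-T genes are close relatives, and reads that fit several of them could be divided in a way the sources used here do not state.

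Of the genes for peptide transport and loading, Tap1 differed most. Tap1, a subunit of the peptide transporter, was at 441, 189 and 478 CPM in challenged controls, against 128, 69.6 and 116 CPM in unchallenged controls. Challenged control 2 was well below the other challenged pools, yet above all 3 unchallenged pools. The log2 fold change was 1.82 (SE 0.47, adjusted p = 0.136). Tap2, the partner subunit, was at 125, 77.9 and 163 CPM with challenge and at 53.3, 37.0 and 61.5 CPM without (log2 fold change 1.27, SE 0.34, adjusted p = 0.151). Its pools kept the same order as those of Tap1 within the challenged controls. Tapbp, the chaperone tapasin, was at 400, 320 and 510 CPM in challenged controls, against 188, 220 and 295 CPM in unchallenged controls. Tapbp had the smallest difference of the 10 genes, with a log2 fold change of 0.81 (SE 0.27, adjusted p = 0.239), and its lowest challenged and highest unchallenged pools lay close together.

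The 3 immunoproteasome subunits were each higher in all challenged control pools. Psmb9, the beta-1i subunit, was at 143, 76.4 and 168 CPM in challenged controls, against 49.97, 23.3 and 36.6 CPM in unchallenged controls. Its log2 fold change of 1.82 (SE 0.44, adjusted p = 0.121) was the largest of the 3. Psmb8, the beta-5i subunit, was at 239, 139 and 288 CPM with challenge and at 93.9, 50.1 and 113 CPM without (log2 fold change 1.37, SE 0.42, adjusted p = 0.200). Psmb10, the beta-2i subunit, was at 97.9, 67.9 and 143 CPM in challenged controls, against 50.3, 39.2 and 66.0 CPM in unchallenged controls. Challenged control 2 exceeded unchallenged control 3 only narrowly, and the log2 fold change was 0.99 (SE 0.38, adjusted p = 0.299).

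Nlrc5, the class I transactivator, had the largest fold difference and the widest spread. It was at 175, 35.9 and 112 CPM in challenged controls, against 29.3, 6.97 and 6.82 CPM in unchallenged controls. Challenged control 2 and unchallenged control 1 nearly met, and the ratio of the highest to the lowest library was 25.7. The log2 fold change was 2.91 (SE 0.72, adjusted p = 0.126).

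**Figure D1:**
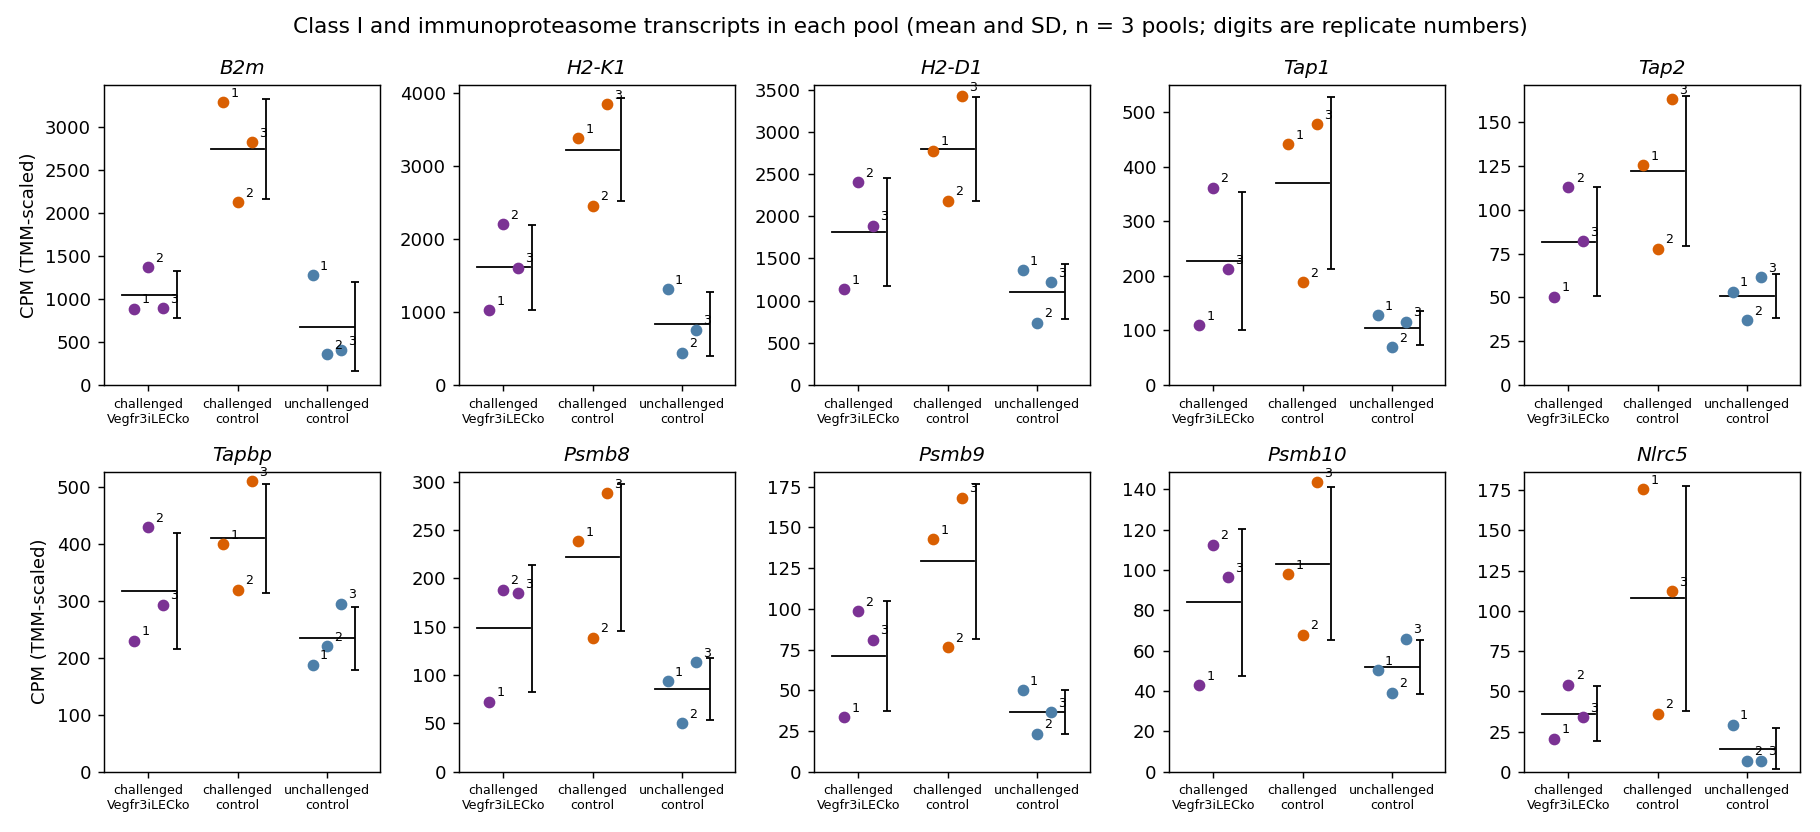
Level of each gene in each pool, in CPM scaled with TMM factors on a linear axis from 0, with the groups from left to right as challenged Vegfr3iLECko, challenged control and unchallenged control. Points are pools with their replicate numbers, lines are means and bars are SD (n = 3); all challenged controls lie above all unchallenged controls in each of the 10 panels, and knockout pool 1 is the lowest knockout pool in each.

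Over the 10 genes the log2 fold change with challenge had a median of 1.60, beside -0.01 over all genes tested. The replicate numbers were taken to pair the 2 control groups, since same-numbered pools deviated together in 3 of 3 pairs. The deviations within a group sum to 0, so these 3 pairs are not independent. Pools with different numbers were not compared, so pairing was an assumption of the fits with a block. With the number as a block in the fit of all 9 libraries, 1 of the 10 genes passed, B2m, against 1.18% of all genes as higher. That fit also applied the numbers to the knockout pools, which were not taken as paired with the challenged controls. With the block in the 6 control libraries alone, a choice made with the data in view, 10 of 10 passed (adjusted p from 0.00958 for Psmb8 to 0.0443 for Tapbp), against 2.23%. One library decided part of the count in the unblocked test: without unchallenged control 1, which was the highest of its group for 6 of the 10 genes, 3 genes passed, B2m, H2-K1 and Nlrc5.

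**Figure D2:**
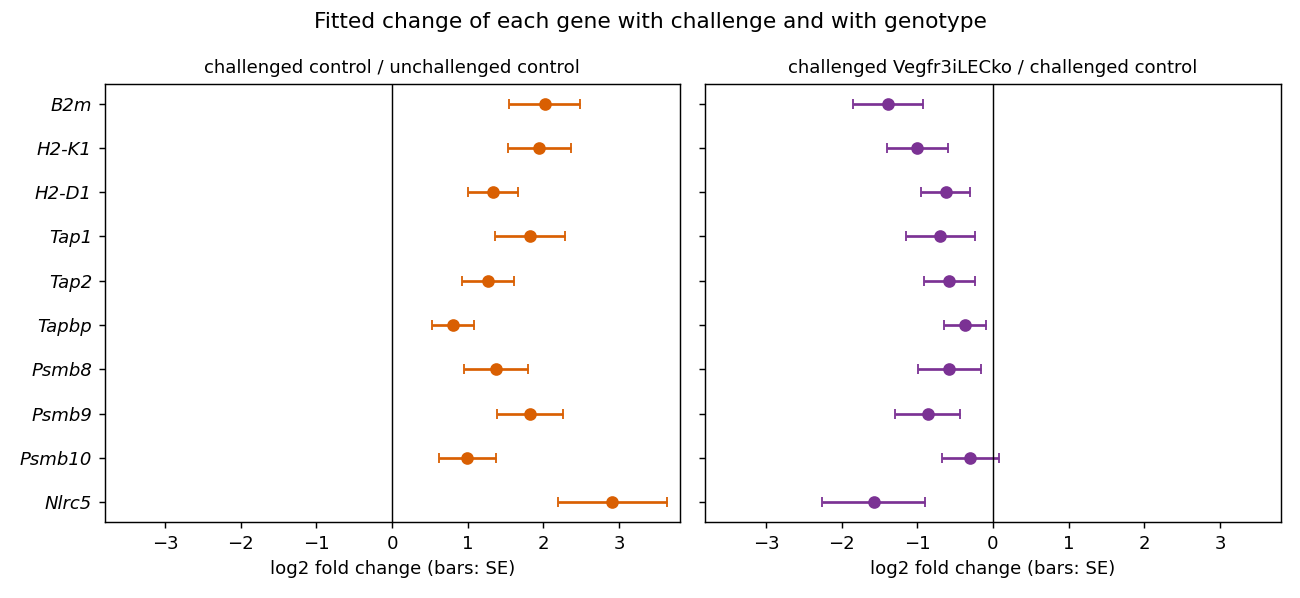
Log2 fold change of each gene from edgeR, with SE as bars, for challenged over unchallenged controls (left) and challenged Vegfr3iLECko over challenged controls (right). The 10 estimates run from 0.81 to 2.91 with challenge and from -1.58 to -0.30 with genotype.

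Each immunoproteasome subunit takes the place of a constitutive one: Psmb9 that of Psmb6, Psmb10 that of Psmb7 and Psmb8 that of Psmb5. The ratio of their counts within a library does not depend on how libraries are scaled. Psmb9 had 2.13, 0.916 and 1.53 reads per read of Psmb6 in challenged controls 1 to 3, against 0.721, 0.305 and 0.387 in unchallenged controls 1 to 3. The ratio was 3.27-fold higher with challenge, on the geometric mean. Psmb8 had 3.99, 2.47 and 3.15 reads per read of Psmb5 in challenged controls and 1.81, 0.897 and 1.16 in unchallenged controls, a 2.55-fold difference. Psmb10 had 1.93, 1.45 and 2.15 reads per read of Psmb7 in challenged controls and 1.04, 0.868 and 1.17 in unchallenged controls, a 1.78-fold difference. The groups did not overlap for any of these 3 ratios. A two-sided exact permutation test gave p = 0.1 for each, the smallest that 3 against 3 pools allow, and an adjusted p of 0.12 over 6 tests.

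The constitutive subunits themselves had small differences with challenge. Psmb5 averaged 69.1 ± 19.5 CPM in challenged controls and 68.4 ± 25.2 CPM in unchallenged controls (SD, n = 3 each). Psmb6 had a log2 fold change of 0.12 (SE 0.23) and Psmb7 of 0.14 (SE 0.18). The 11 remaining core subunits had a median of 0.24, and 0 of 11 passed. Of the 11, 3 were higher with no overlap, against 7.21% of genes tested. Among these 11 subunits, Psmb4 had a log2 fold change of 0.24 (SE 0.21), Psmb1 of 0.10 (SE 0.17), Psma7 of 0.30 (SE 0.17) and Psma2 of 0.16 (SE 0.19).

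**Figure D3:**
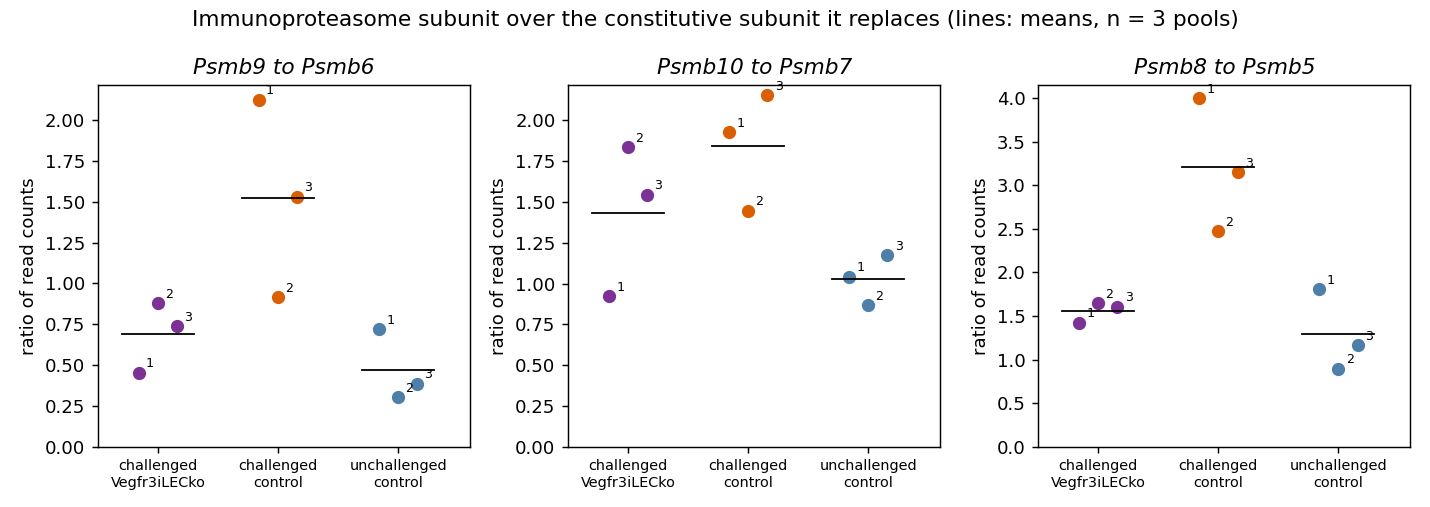
Reads of each immunoproteasome subunit per read of the constitutive subunit it replaces, by pool and group, on linear axes from 0; points are pools with their replicate numbers and lines are means (n = 3). Challenged controls lie above unchallenged controls in all 3 panels, and the knockout pools lie below all challenged controls for Psmb9 to Psmb6 and Psmb8 to Psmb5, but not for Psmb10 to Psmb7.

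The rest of the pathway was read from lists of further genes by role, and 0 of them passed over all genes without the block in either comparison. With DESeq2, 15 of them were called with challenge, all as higher, against 2.80% of genes. Of 13 tested other class I chains, 11 were above 0 with challenge, against 48.5% of genes tested, with a median log2 fold change of 1.10. Among the 15 in the table, 9 were higher with no overlap, against 7.21% of genes tested. These 9 include H2-Q1 and H2-T3, which had too few counts to be tested. H2-T3 had 2, 2 and 1 counts in challenged controls 1 to 3 and 0 in each unchallenged control, all below the floor of 3 counts. H2-T22, a non-classical chain, was at 290, 218 and 385 CPM in challenged controls, against 121, 65.7 and 83.2 CPM in unchallenged controls, and it passed with the block (log2 fold change 1.72, SE 0.32, adjusted p = 0.0949 unblocked and 0.0465 blocked). H2-T23, the Qa-1 chain, was at 410, 302 and 557 CPM with challenge and at 209, 144 and 239 CPM without (adjusted p = 0.181). H2-Q4 was at 475, 188 and 380 CPM with challenge and at 138, 44.5 and 52.7 CPM without (adjusted p = 0.113). Mr1, which presents vitamin metabolites rather than peptides, had a log2 fold change of -0.20 (SE 0.19).

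Chaperones that class I molecules share with other glycoproteins differed less. The 8 peptide loading partners had a median log2 fold change of 0.29 with challenge. Of these 8, 3 were higher with no overlap and 1 was lower, against 7.21% and 8.50% of genes tested. Tapbpl had a log2 fold change of 0.80 (SE 0.26), near the 0.81 of Tapbp, and Erap1 of 0.61 (SE 0.24). The value was 0.30 (SE 0.17) for Pdia3, a thiol oxidoreductase of the loading complex, 0.27 (SE 0.29) for the lectin chaperone Calr, 0.34 (SE 0.18) for the chaperone Hspa5 and 0.12 (SE 0.14) for the lectin chaperone Canx. Of the 7 genes for proteasome activators and assembly, Psme2, a subunit of the interferon-inducible activator PA28, was at 150, 113 and 170 CPM in challenged controls, against 63.6, 58.5 and 79.1 CPM in unchallenged controls. Psme2 passed with the block (log2 fold change 1.10, SE 0.21, adjusted p = 0.0949 unblocked and 0.0253 blocked). Its partner Psme1 had a log2 fold change of 0.73 (SE 0.28, adjusted p = 0.310). Pomp, an assembly chaperone of the core, and Psme4, an activator of another family, had 0.07 (SE 0.18) and 0.14 (SE 0.15). Among the 7 activator and assembly genes 3 were higher with no overlap, against 7.21% of genes tested.

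The 16 upstream regulators had a median log2 fold change of 1.12 with challenge. Of these, 9 of 16 did not overlap and were higher, against 7.21% of genes tested. Irf1, an interferon-induced transcription factor of class I and immunoproteasome genes, was at 486, 229 and 267 CPM in challenged controls, against 130, 126 and 155 CPM in unchallenged controls (adjusted p = 0.119). The interferon gamma receptor chains Ifngr1 and Ifngr2 had log2 fold changes of 0.51 (SE 0.16) and 0.32 (SE 0.16), and the kinase Jak1 of 0.21 (SE 0.16). Ifng, named after its values were seen, had 340, 36 and 40 counts in challenged controls 1 to 3, against 0, 2 and 0 in unchallenged controls 1 to 3. All 3 challenged pools were above all unchallenged pools, and challenged control 1 was the highest. Of the 10 class I genes, B2m and Nlrc5 had their highest level in challenged control 1 and the other 8 in challenged control 3.

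**Figure D4:**
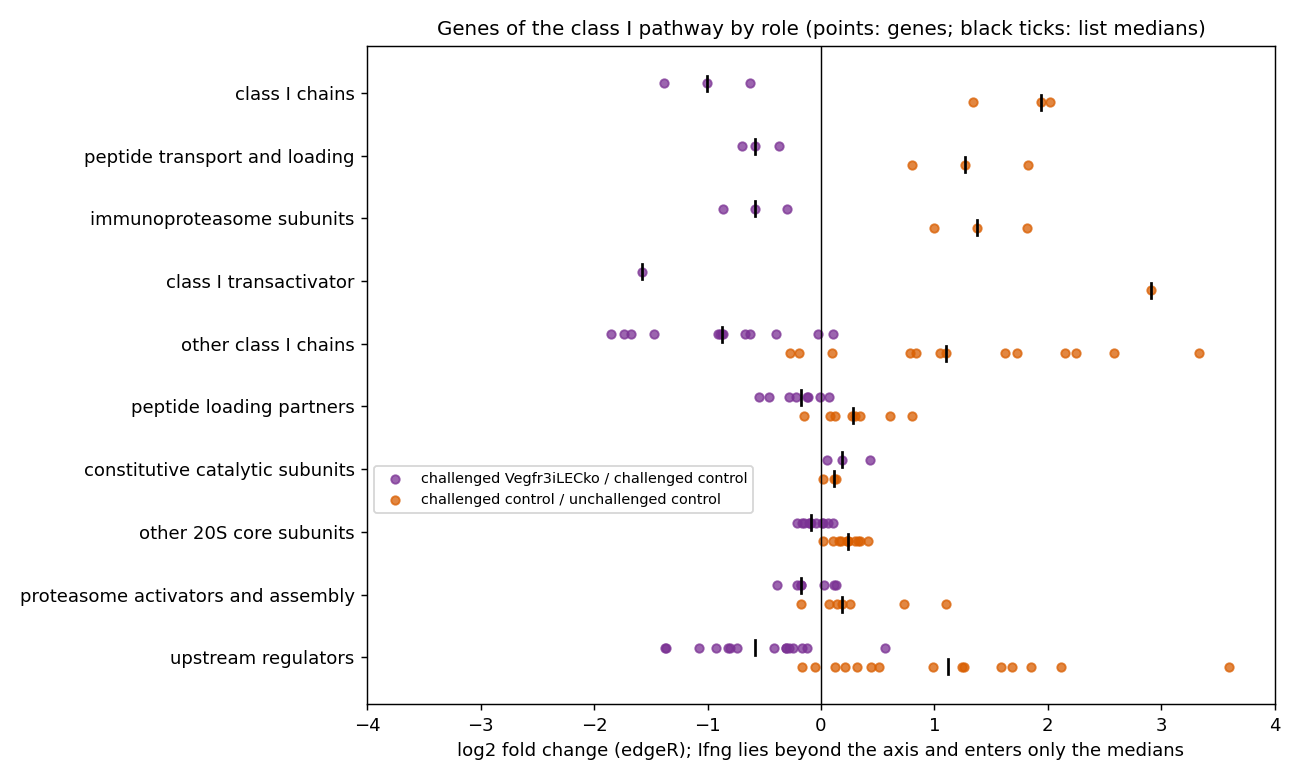
Log2 fold change (edgeR) of each tested gene of the class I pathway, grouped by role down the page, for challenged Vegfr3iLECko over challenged controls (purple) and challenged over unchallenged controls (orange); points are genes and black ticks are list medians, and Ifng lies beyond the axis. Medians with challenge are 1.94 for the class I chains and 1.37 for the immunoproteasome subunits, beside 0.12 for the constitutive catalytic subunits and 0.24 for the other core subunits.

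The second comparison asked whether loss of Vegfr3 in lymphatic endothelium went with another level of the class I pathway under challenge. All 10 genes had a lower mean in challenged knockouts than in challenged controls, as did the fitted value of 49.6% of genes tested, with log2 fold changes from -1.58 for Nlrc5 to -0.30 for Psmb10 and a median of -0.66, beside 0.00 over all genes. None passed over all genes (adjusted p from 0.460 to 0.827); edgeR called 0% of genes as lower. With an unadjusted p under 0.05, 3 of 10 genes were lower, B2m, H2-K1 and Nlrc5, against 4.53% of genes, and DESeq2 called 0 of 10, against 0.656%. The knockout and control pools did not overlap for 2 of 10 genes, B2m and H2-K1, while 6.24% of all genes were lower with no overlap. The comparison shares the challenged controls with the first one, so an extreme pool of that group moves both. The T cell markers summed to 28.2 to 39.0 CPM in challenged knockouts, against 96.1 to 193 CPM in challenged controls, and their part in these differences was not tested.

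B2m was at 885, 1368 and 895 CPM in challenged knockouts 1 to 3, against 3283, 2124 and 2821 CPM in challenged controls 1 to 3. All knockout pools were below all challenged controls, with a log2 fold change of -1.39 (SE 0.46, adjusted p = 0.460), or 2.61-fold lower. H2-K1 was at 1028, 2203 and 1609 CPM in challenged knockouts, against 3381, 2457 and 3849 CPM in challenged controls. Knockout 2 lay close below the lowest challenged control, and the log2 fold change was -1.001 (SE 0.40, adjusted p = 0.539). H2-D1 was at 1138, 2405 and 1887 CPM in knockouts, against 2775, 2186 and 3422 CPM in challenged controls. Knockout 2 was above challenged control 2, so the groups overlapped (log2 fold change -0.63, SE 0.33, adjusted p = 0.645).

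Outside the chains, knockout 2 reached or passed the lowest challenged control in every gene. Tap1 was at 110, 362 and 212 CPM in challenged knockouts and at 441, 189 and 478 CPM in challenged controls (log2 fold change -0.70, SE 0.45, adjusted p = 0.713). Tap2 was at 50.4, 113 and 82.2 CPM in knockouts, against 125, 77.9 and 163 CPM in challenged controls. Tapbp was at 230, 429 and 293 CPM in knockouts, against 400, 320 and 510 CPM in challenged controls. In all of these genes knockout 1 was lowest and knockout 2 highest of the knockout pools, and the groups overlapped. The log2 fold change was -0.58 (SE 0.34) for Tap2 and -0.37 (SE 0.27) for Tapbp. Psmb9 was at 33.6, 98.5 and 81.1 CPM in challenged knockouts, against 143, 76.4 and 168 CPM in challenged controls (log2 fold change -0.86, SE 0.43, adjusted p = 0.628). Psmb8 was at 72.7, 188 and 185 CPM in knockouts, against 239, 139 and 288 CPM in challenged controls (log2 fold change -0.58, SE 0.42). For both subunits knockouts 2 and 3 were above challenged control 2. Psmb10, at 42.9, 112 and 96.4 CPM in knockouts and 97.9, 67.9 and 143 CPM in challenged controls, had the smallest difference, and its sign turned when challenged control 3 was left out (log2 fold change 0.023). Nlrc5 was at 20.4, 54.0 and 34.02 CPM in knockouts, against 175, 35.9 and 112 CPM in challenged controls (log2 fold change -1.58, SE 0.68, adjusted p = 0.572). Knockout 2 was above challenged control 2, and the other 2 knockout pools were below it.

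Measured against their constitutive counterparts, the immunoproteasome subunits did not overlap between knockouts and challenged controls for 2 of 3 pairs. Psmb8 had 1.42, 1.65 and 1.61 reads per read of Psmb5 in challenged knockouts 1 to 3, against 3.99, 2.47 and 3.15 in challenged controls 1 to 3. All knockout pools were below all challenged controls, and the ratio was 2.02-fold lower. Psmb9 had 0.454, 0.880 and 0.738 reads per read of Psmb6 in knockouts, against 2.13, 0.916 and 1.53 in challenged controls, 2.16-fold lower. Its groups did not overlap, though knockout 2 and challenged control 2 nearly met. The exact permutation test gave p = 0.1 for these 2 ratios, the smallest possible (adjusted p = 0.12). The ratio of Psmb10 to Psmb7 overlapped, at 0.922, 1.83 and 1.54 in knockouts and 1.93, 1.45 and 2.15 in challenged controls (exact permutation p = 0.4). Psmb5, the denominator of the first ratio, was itself at 51.1, 114 and 115 CPM in knockouts, against 59.8, 56.1 and 91.5 CPM in challenged controls (log2 fold change 0.43, SE 0.35). Psmb6, the denominator for Psmb9, was at 74.0, 112 and 110 CPM in knockouts, against 67.2, 83.4 and 110 CPM in challenged controls (log2 fold change 0.18, SE 0.23). The CPM of Psmb8 and Psmb9 themselves overlapped between these groups.

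The size of the genotype difference depended on which knockout pool was in the fit. Knockout 1 was the lowest knockout pool for 10 of 10 genes, and its level lay within the range of the unchallenged controls for 10 of 10. Knockout 2 was above all unchallenged controls for 10 of 10 genes and knockout 3 for 8 of 10. Without knockout 1 the median log2 fold change was -0.37, and without knockout 2 it was -1.03. Knockout 1 also had the highest Flt4 of the knockout pools, at 13.0 CPM, and whether that bears on its class I levels was not tested. With challenged control 3 left out the median was -0.45, and with challenged control 2 left out it was -0.91.

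The other class I chains had a median of -0.87 with genotype. Among the 15 in the table, 8 were lower in all knockout pools than in all challenged controls, against 6.24% of genes tested. These 8 include the untested H2-T3, with 0 counts in each knockout pool and 2, 2 and 1 in challenged controls 1 to 3. H2-Q4 was at 89.8, 182 and 105 CPM in knockouts, against 475, 188 and 380 CPM in challenged controls (adjusted p = 0.459), and H2-T22 at 104, 202 and 184 CPM in knockouts, against 290, 218 and 385 CPM in challenged controls (adjusted p = 0.497). The constitutive catalytic subunits had a median of 0.18 and the other core subunits of -0.09. Ifng had 3, 17 and 6 counts in challenged knockouts 1 to 3, against 340, 36 and 40 in challenged controls 1 to 3, with an adjusted p of 0.364. DESeq2 called Ifng as lower with genotype, the one further gene of the pathway it called.

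Set beside unchallenged controls, the challenged knockouts had positive differences in 10 of 10 genes, against 50.7% of all genes. The log2 fold changes were 0.44 to 1.34 with a median of 0.75, and none passed (adjusted p = 0.999 for each). In edgeR 2 of 10 had an unadjusted p under 0.05, H2-K1 and Tap1, against 1.25% of genes as higher, and DESeq2 called 0, against 0.0579%. The knockouts overlapped the unchallenged controls in all 10 genes, while 3.26% of genes were higher with no overlap. The means of B2m were 1049 ± 276 CPM in challenged knockouts and 678 ± 515 CPM in unchallenged controls (SD, n = 3 each). For Tap1 they were 228 ± 126 CPM in challenged knockouts and 105 ± 30.8 CPM in unchallenged controls. These values share their samples with both comparisons above and are given only for the level.

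**Figure D5:**
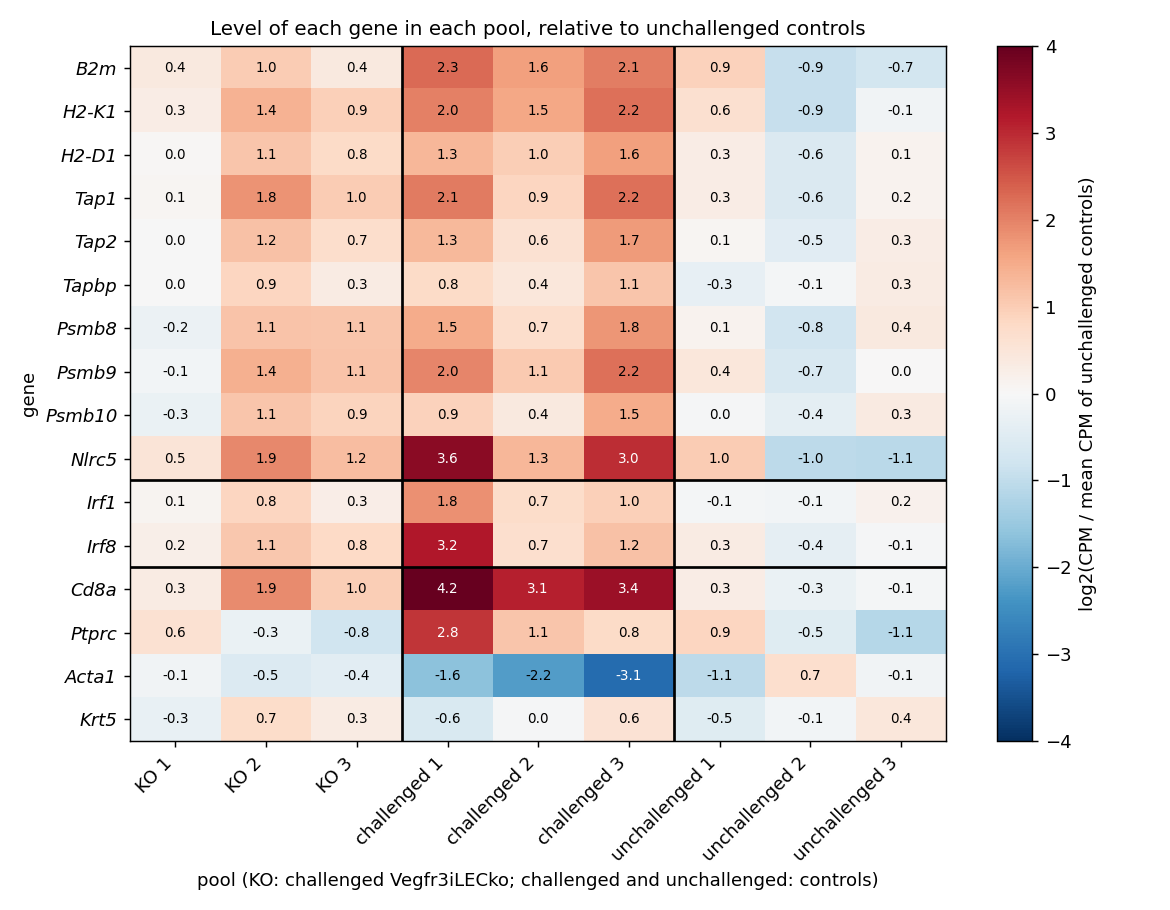
Log2 of the CPM of each gene in each pool over its mean in unchallenged controls, with the 10 class I genes on top, then 2 regulators, then 4 markers of other cells; columns are pools, from challenged Vegfr3iLECko (KO) to challenged and unchallenged controls. Knockout pools 2 and 3 lie above the unchallenged mean in the class I genes, Cd8a and Krt5, and below it in Ptprc and Acta1.

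Markers of other cells differed between the groups, and their part in the class I results was not tested. Of the 10 T cell markers, 10 were higher with no overlap in challenged than in unchallenged controls, against 7.21% of genes tested. In edgeR 3 passed, Cd8a, Cd8b1 and Lck, against 0.0576% of genes as higher. In challenged knockouts all 10 were lower than in challenged controls with no overlap, against 6.24% of genes. DESeq2 called 8 of them as lower with genotype, against 0.656%, and edgeR 0. Cd8a, a chain of the co-receptor that binds class I molecules, was at 3.43, 9.97 and 5.32 CPM in challenged knockouts, 50.7, 23.2 and 28.8 CPM in challenged controls and 3.30, 2.26 and 2.57 CPM in unchallenged controls. The 6 pan-leukocyte markers summed to 134 to 247 CPM in challenged knockouts, 271 to 720 CPM in challenged controls and 114 to 228 CPM in unchallenged controls. Ptprc, the leukocyte antigen CD45, was at 46.5, 24.9 and 17.5 CPM in knockouts 1 to 3. The pan-leukocyte sum was 247, 180 and 134 CPM in these pools. Not every immune marker kept this order. Cd8a was lowest in knockout 1, and the T cell sum was 31.1, 39.0 and 28.2 CPM in knockouts 1 to 3. The 8 macrophage and dendritic cell markers summed to 221 to 423 CPM in challenged knockouts, 282 to 750 CPM in challenged controls and 232 to 382 CPM in unchallenged controls, sums that overlapped. Of these 8, Itgax, Cd14 and Fcgr1 were higher with no overlap in challenged than in unchallenged controls, against 7.21% of genes tested. Itgax was lower with no overlap in challenged knockouts than in challenged controls, against 6.24%. The 10 skeletal muscle markers summed lowest in challenged controls, at 1797 to 2825 CPM in challenged knockouts, 269 to 666 CPM in challenged controls and 1058 to 4176 CPM in unchallenged controls. With challenge 9 of the 10 were lower with no overlap, against 8.50% of genes, and DESeq2 called 9, against 2.04%. With genotype 10 of 10 were higher with no overlap, against 6.70%, and DESeq2 called 9, against 0.829%. Without the block edgeR called 0 in either comparison. The 6 adipocyte markers summed to 7.09 to 19.7 CPM in challenged knockouts, 1.43 to 5.32 CPM in challenged controls and 4.78 to 61.3 CPM in unchallenged controls. Their 5 tested members had a median log2 fold change of -4.10 with challenge and of 1.48 with genotype. With challenge DESeq2 called 4 as lower, against 2.04% of genes, and edgeR 0, against 0.0064%. With the block edgeR called 3 as lower, against 0.525%. With genotype 0 were called. The summed level of the 8 epithelial markers overlapped between all groups. Still, 2 of the 8, Cdh1 and Epcam, were higher with no overlap in challenged than in unchallenged controls, against 7.21% of genes tested. No marker on the T cell, leukocyte, macrophage, epithelial or muscle lists was at 0 in any library. Of the adipocyte markers, Lep was at 0 in 6 of 9 libraries, and Adipoq, Plin1 and Cidec were each at 0 in 1.

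The 10 genes differed in how far they varied and in the order of the unchallenged pools, where control 1 was the highest for 6 genes and control 3 for 4. The share of all counts that fell on them was 0.385%, 0.691% and 0.523% in challenged knockouts 1 to 3. In the challenged control pools it was 1.08%, 0.772% and 1.14%, and in the unchallenged control pools 0.481%, 0.209% and 0.297%. Challenged control 2 was the lowest challenged control for 10 of 10 genes, and unchallenged control 2 the lowest unchallenged control for 8 of 10. Between the highest and lowest library the level differed 2.72-fold for Tapbp, 9.23-fold for B2m and 25.7-fold for Nlrc5. Per kilobase of exon, with exon lengths from GENCODE M21, B2m stood highest in challenged controls at 3189 ± 678 CPM per kb (SD, n = 3), followed by H2-K1 at 1951 ± 428 and H2-D1 at 1329 ± 294. In unchallenged controls B2m was at 789 ± 599, H2-K1 at 507 ± 266 and H2-D1 at 526 ± 155 CPM per kb, levels that did not differ beyond their spread. The other 7 genes ranged from 13.3 CPM per kb for Nlrc5 to 141 for Tapbp in challenged controls.

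The genes whose pattern over the 9 libraries was most like that of the 10 were Samhd1, H2-T22, Parp9, Ifih1 and Oasl2. Likeness was the mean absolute difference between a gene's centred log2 CPM and the median of the 10 genes. It was 0.119 for Samhd1, 0.155 for H2-T22, 0.166 for Parp9, 0.179 for Ifih1 and 0.181 for Oasl2, beside a median of 0.727 over the genes outside the list. Samhd1, which degrades deoxynucleotides, was at 272, 571 and 458 CPM in challenged knockouts, 857, 422 and 805 CPM in challenged controls and 284, 207 and 263 CPM in unchallenged controls. Its pools kept the order of Tap1 in the knockouts and unchallenged controls. Among the 10 genes themselves the same measure was 0.140 for H2-D1 and 0.565 for Nlrc5, the least typical.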

How the data were processed

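The authors deposited unnormalized counts, whole numbers by gene symbol, covering 20603 genes and 9 libraries of 3 pooled mice each. HISAT2, Bowtie2, DESeq2 and the build mm39 are named per the submitters' processing notes. Versions, read counter, annotation and library strand were not given in the sources used here. From these counts, genes were kept with filterByExpr (15613) and scaled with TMM factors. A quasi-likelihood fit with edgeR 4.0.16 (on limma 3.58.1 and R 4.3.3) took in all 9 libraries, with two-sided tests adjusted by Benjamini-Hochberg over all genes and a threshold of 0.05; adjusted p-values, log2 fold changes and SE of single genes come from it. The procedure was tested on simulated counts. DESeq2 1.42.0, other scaling, no filter, fits of 2 groups, a replicate block and leaving out each library were alternatives.

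The members and lists were chosen with earlier results of these data known. Named genes were the 10 members, up to 4 of each pathway list (those that passed, then the most abundant), Flt4 and the 5 most alike; other genes were named after their values were seen. The labels say that replicate experiments were done but not what a number marks. Same-numbered pools were checked for shared deviations from their group means: the correlations were 0.440, 0.228 and 0.461 between the control groups, which were taken as paired, and 0.334, -0.138 and 0.311 between knockouts and challenged controls, which were not. No 2 libraries of a group were copies. In GENCODE M21 (GRCm38), Tap1 and Psmb9 overlap on opposite strands, and B2m overlaps Patl2, which had at most 0.186 CPM. Nlrc5 overlaps 9330175E14Rik on the opposite strand, which had at most 6.99 CPM, while Nlrc5 was at 6.82 CPM in unchallenged control 3. Without strand such reads cannot be told apart. Tapbp overlaps Zbtb22 on the same strand, which had 26.9 to 56.3 CPM. Promoters came from RefSeq (GRCm38.p6).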

Additional observations from a re-analysis of the deposited data

How the results depend on the processing

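With challenge, all 150 alternative values of the 10 genes kept a positive sign, and 22 of them newly passed. The groups did not overlap for any of the 10 genes, so leaving out a library could hardly turn a sign. Fits without a knockout pool kept both control groups whole. Of the 22 values, 10 came from the block in the 2 control groups, chosen after seeing the data. The number of class I genes called was 8 by DESeq2, 1 with the replicate block over all 9 libraries, 10 with the block in the 2 control groups (chosen after seeing the data) and 0 to 3 without 1 library. That of further pathway genes was 15, 2, 12 and 0 to 4 in the same order, and that of all genes, 10 in the reported test, was 753, 267, 476 and 0 to 121. It was 20 with no filter and 1 with only the 2 groups compared. With genotype, the class I genes called were 0 under all 14 alternatives. All genes called were 231 by DESeq2 and 22 with the block, although the numbers were not taken to pair these groups. By DESeq2, 1 further pathway gene was called. Of 140 alternative values with genotype 2 turned, both of Psmb10: it was 0.023 without challenged control 3 and 0.021 without knockout 1, in a range of -0.56 to 0.023 without 1 library. The median log2 fold change without 1 library was 1.35 to 1.85 with challenge and -1.03 to -0.37 with genotype. Without 1 library the log2 differences of the ratios were 1.43 to 2.07 for Psmb9 to Psmb6, 0.71 to 0.998 for Psmb10 to Psmb7 and 1.12 to 1.62 for Psmb8 to Psmb5 with challenge, and -1.44 to -0.83, -0.61 to -0.11 and -1.19 to -0.84 for the same pairs with genotype. Against unchallenged controls, the challenged knockouts had 14 genes called by DESeq2 and 0 by the other alternatives.

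Depth did not limit the class I genes, whose lowest count in a library was 130. With 3 pools a group, no exact permutation test can go below 0.1. Counts do not tell cell number from RNA per cell.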
